A study of Homo sapiens with 6 samples.

Results

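The genes described here are 4 CXC chemokines and 6 regulators of the transcription factor NF-kappaB: CXCL1, CXCL2, CXCL3, CXCL8, NFKBIA, NFKB1, NFKB2, RELB, IKBKB and TNFAIP3. They were taken by gene name from the authors' gene expression table, and 7 of the 10 were found there, among 10066 assembled loci. CXCL2, CXCL3 and TNFAIP3 were not among its gene names and were not analysed here. No other gene name shared a locus with any of the 7.

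RNA was sequenced from 3 human bladder cancer cell lines, RT4 and RT112 with an FGFR3-TACC3 fusion and SW780 with a fusion labelled FGFR3-BAIBP2L1. Cells of each line were kept for 2 days with quisinostat, an inhibitor of histone deacetylases (the enzymes that remove acetyl groups from histones), or with DMSO, its solvent. The quisinostat dose was 50 nM for RT4, 10 nM for RT112 and 25 nM for SW780, so dose and cell line cannot be told apart. RT4 cells were grown in McCoy's 5A medium and RT112 and SW780 cells in DMEM, with glutamine and non-essential amino acids added for RT112. There was 1 library for each line and treatment, 6 in all, and each difference within a line therefore has no replicate check. Values are FPKM, a fragment count divided by the length of the transcript and by the size of the library, so levels of different genes can be compared per length. The median FPKM over all loci was between 6.59 and 7.39 in the 6 libraries, between 213 and 534 loci were listed at 0 in a library, and the read depth is unknown because the values are not in steps of whole reads. All 16 urothelial and epithelial markers looked for were in the table, and none of the 8 immune or 4 endothelial markers was among its gene names. The summed FPKM of the urothelial markers was 1835 in DMSO and 1052 in quisinostat in RT4, 1188 and 1744 in RT112, and 1726 and 1035 in SW780. KRT7, KRT8, KRT18 and KRT19 weigh most in these sums, with the highest mean levels of the 16, from 174.8 to 346.7 FPKM. Single markers went both ways. In RT4, 1 had a log2 ratio of quisinostat over DMSO above 1 and 8 below -1 (19.2% and 14.3% of all loci). These counts were 3 and 1 in RT112 (14.9% and 3.95%) and 1 and 5 in SW780 (12.5% and 7.64%). Of 6 fibroblast markers 3 were named, with sums of 1.16 and 10.2 FPKM in RT4, 135.4 and 134.5 in RT112, and 10.97 and 16.0 in SW780. In RT112 nearly all of both sums came from 1 marker, LUM, at 135.1 FPKM in DMSO and 132.8 in quisinostat. The part of these markers in the results below was not tested.

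CXCL1, CXCL2, CXCL3 and CXCL8 (interleukin-8) are secreted proteins that bind the receptor CXCR2 and draw neutrophils into tissue, and many epithelial tumors, bladder cancer among them, make them. Their genes are classical targets of NF-kappaB, a family of dimers built from RELA, REL, RELB and the proteins made from NFKB1 and NFKB2. In resting cells the inhibitor IkappaBalpha, encoded by NFKBIA, holds the dimers in the cytoplasm until the kinase IKKbeta, encoded by IKBKB, marks it for destruction. NFKBIA and TNFAIP3 are themselves NF-kappaB targets and switch the signal off again, while RELB and NFKB2 form the main dimer of the slower non-canonical branch.

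Several promoters of the 10 genes hold letters that match a known NF-kappaB recognition site, and these stretches are shown because most of the genes with a promoter entry share them. RefSeq promoters on GRCh38.p14 were matched for 8 of the 10 genes (not for RELB and IKBKB), and the 250 bases before each transcription start were searched on both strands. The 9 letters GGAATTTCC were found in 6 of the 8 genes, namely the 4 chemokine genes, NFKBIA and NFKB1, against 0.502% of 27305 genes. The genes were listed as NF-kappaB targets and regulators and the motifs were chosen afterwards, so such shares describe the list and test nothing. The bases around the motif are nearly the same in CXCL1, CXCL2 and CXCL3, so these are not separate finds. A wider NF-kappaB consensus of 10 letters was found in 7 of the 8, all but CXCL8, against 11.8% of all genes, and it overlaps the shorter motif where both occur. The letters TGACTCA, known as a site for AP-1, were found in CXCL8 only, against 5.19% of all genes. Windows of 29 bases around the shorter motif are given 5′ to 3′ along the gene's strand, with the motif in capitals; for NFKBIA the capitals are its reverse complement.
CXCL8, chr4:73740468-73740496, plus strand: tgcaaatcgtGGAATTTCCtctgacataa
CXCL1, chr4:73869305-73869333, plus strand: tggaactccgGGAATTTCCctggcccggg
NFKB1, chr4:102501301-102501329, plus strand: gacgtcagtgGGAATTTCCagccaggaag
NFKBIA, chr14:35404812-35404840, minus strand: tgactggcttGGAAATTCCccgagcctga
In CXCL8 both TGACTCA and GGAATTTCC lie within 87 bases at chr4:73740419-73740505 on the plus strand, in capitals in this order.
CXCL8, both motifs: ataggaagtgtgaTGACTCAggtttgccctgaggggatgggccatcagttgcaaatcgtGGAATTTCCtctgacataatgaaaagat
A match of letters is a description of the reference sequence and not a measurement of binding in these cells.

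A pair of genes differed between quisinostat and DMSO in the same direction in every line by more than 0.3 on the log2 scale, the size that the study applied to lowered genes. CXCL8 was higher with quisinostat in all 3 lines and IKBKB was lower in all 3. Among all 9112 loci above 0 in the 6 libraries, 11.4% were above 0.3 in every line and 4.99% were below -0.3 in every line, and the 2 genes are read against these shares. Among the 6 measured genes above 0 throughout, 1 was thus higher and 1 lower. Both genes kept these places at a threshold of 0.5, and at a threshold of 1 only CXCL8 was left, where 3% of loci were above 1 in all lines and 0.285% below -1. With 1 FPKM added to each value, the log2 ratio of CXCL8 in RT112 was 0.896, short of that threshold.

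**Figure D1:**
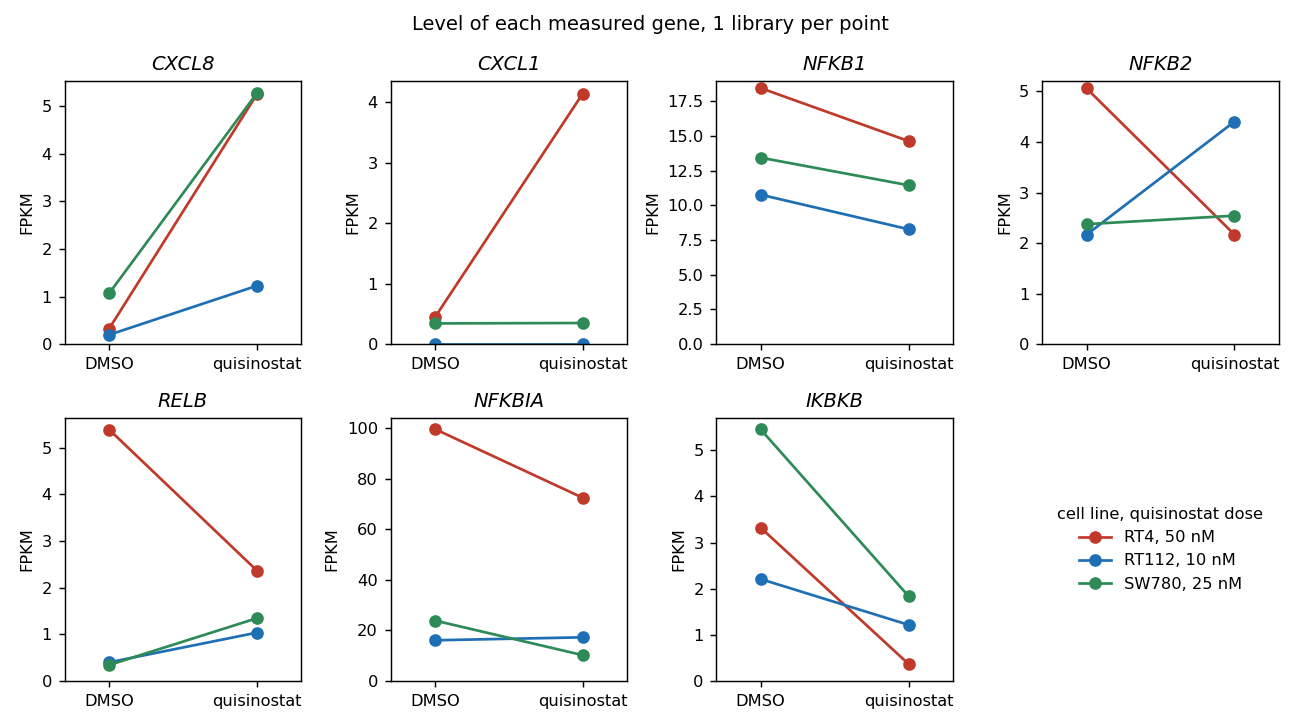
Level of each measured gene in FPKM (vertical axis, from 0, a separate scale for each gene) in DMSO and quisinostat, with 1 library per point and a line joining the libraries of a cell line. CXCL8 lines all slope up, to 5.25, 1.23 and 5.27 FPKM, and IKBKB lines all slope down, while RELB and NFKB2 lines cross.

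Of the ligands, CXCL8 (chr4:73740506-73743716, plus strand, GRCh38, GENCODE 29) was expressed at a low level in DMSO, with 0.324 FPKM for RT4, 0.197 FPKM for RT112 and 1.07 FPKM for SW780. With quisinostat the 3 libraries gave 5.25 FPKM (RT4), 1.23 FPKM (RT112) and 5.27 FPKM (SW780). Each quisinostat library was above all 3 DMSO libraries, so the groups did not overlap in this direction, as for 6.18% of the 9112 loci, and RT112 was the lowest line under both treatments. The level with quisinostat was 16.2-fold that in DMSO for RT4 cells, 6.23-fold for RT112 and 4.94-fold for SW780, or log2 ratios of 4.02, 2.64 and 2.31. Few loci had a larger log2 ratio: 2.14% (RT4), 3.01% (RT112) and 3.88% (SW780). Taking the smallest of its 3 log2 ratios, 54 of the 9112 loci had a higher one. In DMSO the order of the lines was SW780, RT4, RT112, with SW780 at 5.41-fold the level of RT112. With quisinostat RT4 and SW780 had nearly equal levels and SW780 was at 4.29-fold RT112, and with 1 library each none of these differences between lines was tested.

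CXCL1 (chr4:73869393-73871242, plus strand), whose gene lies 126 kb from CXCL8 and whose protein binds the same receptor, differed with quisinostat in RT4 alone. Its level was 0.444 FPKM in DMSO and 4.14 in quisinostat in RT4, 0.343 and 0.350 in SW780, and it was listed at 0 in both RT112 libraries. The 9.33-fold higher level in RT4 (log2 ratio 3.22, exceeded by 3.24% of loci) contrasts with a ratio of 1.02 in SW780, and no fold is given for RT112. A value listed at 0 in such a table can be a failed estimate. CXCL1 transcripts share an exact run of 77 bases with CXCL2 and 55 bases with CXCL3, and 5.73% of the 50-base windows of CXCL1 occur in CXCL2 (GENCODE 29), so a small part of the reads could belong to either gene. No shared run with CXCL8 was longer than 10 bases. Of 7 CXCR2 ligands listed, only CXCL1 and CXCL8 were among the gene names of the table.

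Around CXCL8 on chromosome 4, 2 of 5 other named loci within 1 Mb, RASSF6 and AREG, were above 0.3 in all 3 lines, against 11.4% of all loci. That share is over loci with a ratio in every line, which CXCL1 and EREG lack, so these neighbours could not be counted as higher. The window of 1 Mb was chosen after the values were seen. The same window around IKBKB held 12 other named loci, of which 1 (SFRP1) was above 0.3 in all 3 lines and 0 were below -0.3. RASSF6, a RAS-association domain gene 120 kb away, was higher in all 3 lines, by 1.32 (RT4), 1.10 (RT112) and 1.38 (SW780) on the log2 scale. The epidermal growth factor receptor ligand gene AREG, 701 kb away, had log2 ratios of 4.61, 1.13 and 2.51 in the same order. EREG, a second ligand of that receptor at 621 kb, had log2 ratios of 5.87 in RT4 and 2.53 in SW780 and was listed at 0 in both RT112 libraries, as CXCL1 was. Its RT4 ratio rests on levels under 1 FPKM, 0.0170 in DMSO and 0.994 in quisinostat. The RT4 ratio of AREG rests on a DMSO level of 0.613 FPKM. ANKRD17, 482 kb away on the other side, was lower in each line, with log2 ratios of -0.48, -0.76 and -0.20.

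**Figure D2:**
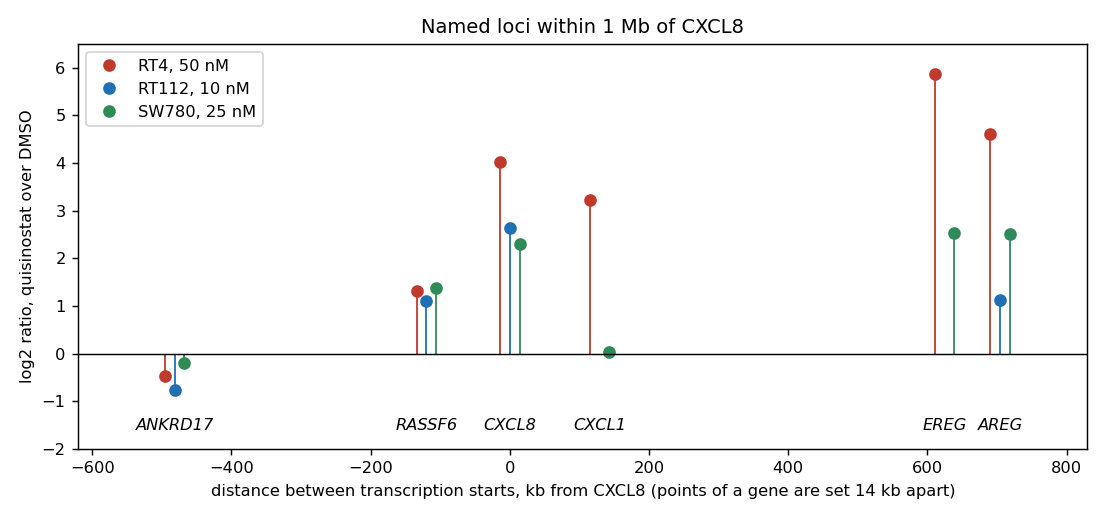
Log2 ratio of quisinostat over DMSO (vertical axis) for CXCL8 and the 5 other named loci within 1 Mb, placed by the distance of their transcription start from that of CXCL8 in kb, with 1 point per cell line. RASSF6, CXCL8 and AREG lie above 0 in all 3 lines, and CXCL1 and EREG have no RT112 point because both RT112 libraries list them at 0.

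Among the subunits, NFKB1 (chr4:102501329-102617302, plus strand), which encodes the p105 precursor of p50, had the log2 ratios closest together, within 0.148 of each other. Its level in DMSO and quisinostat was 18.4 and 14.6 FPKM in RT4, 10.8 and 8.28 in RT112, and 13.4 and 11.4 in SW780. It was lower with quisinostat in each line by a small step, and the treatment groups overlapped because the lines differed more than the treatments. The log2 ratios were -0.33, -0.38 and -0.23, so SW780 missed the -0.3 threshold. The order of the lines, RT4, SW780, RT112, was the same under both treatments, with 1.71-fold between highest and lowest in DMSO and 1.77-fold in quisinostat.

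NFKB2 (chr10:102394110-102402529, plus strand), which encodes the p100 precursor of p52, differed in opposite directions in RT4 and RT112. Its level in DMSO and quisinostat was 5.06 and 2.17 FPKM in RT4, 2.17 and 4.40 in RT112, and 2.37 and 2.54 in SW780. RT4 was the highest line in DMSO and the lowest in quisinostat, and RT112 the reverse. On the log2 scale the difference was -1.22 for RT4, 1.02 for RT112 and 0.10 for SW780. With a correction for transcript GC content, described further on, the first 2 values were -0.21 and 0.25, and neither was called.

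RELB (chr19:45001430-45038198, plus strand), the partner of p52, showed the widest spread between the lines before treatment. The DMSO libraries gave 5.39 FPKM (RT4), 0.398 FPKM (RT112) and 0.341 FPKM (SW780), and the quisinostat libraries 2.36, 1.03 and 1.34 in the same order. The DMSO level of RT4 was 13.5-fold that of RT112 and 15.8-fold that of SW780, and in quisinostat these gaps were 2.28-fold and 1.76-fold. The log2 ratio of RELB was -1.19 for RT4, 1.38 for RT112 and 1.98 for SW780. With the GC content correction the ratio in RT4 was 0.12, on the other side of 0, and that in RT112 was 0.37, so that the opposite directions did not remain. A log2 ratio above 0.3 in one line and below -0.3 in another was found for 29.3% of loci, and a ratio above 1 in one line and below -1 in another, as for RELB and NFKB2 before the correction, for 5.97%.

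The inhibitor NFKBIA (chr14:35401511-35404749, minus strand) was the most abundant of the 7 genes per length in every library but 1. Its level in DMSO and quisinostat was 99.6 and 72.4 FPKM in RT4, 16.1 and 17.2 in RT112, and 23.9 and 10.2 in SW780, where NFKB1 at 11.4 FPKM exceeded it in quisinostat. RT4 had the highest level under both treatments, 6.20-fold that of RT112 and 4.17-fold that of SW780 in DMSO, and the treatment groups overlapped. In SW780 the DMSO level was 2.34-fold that in quisinostat, a log2 ratio of -1.23 below which 5.42% of loci lay. The log2 ratio was -0.46 in RT4 and 0.10 in RT112, so NFKBIA was called in SW780 only, and the difference between the lines was not tested.

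IKBKB, the gene of the kinase that acts on IkappaBalpha, was lower with quisinostat in all 3 lines. Its level in DMSO and quisinostat was 3.32 and 0.367 FPKM in RT4, 2.21 and 1.22 in RT112, and 5.45 and 1.84 in SW780. All 3 quisinostat libraries lay below all 3 DMSO libraries, as for 4.43% of the 9112 loci. The DMSO level was 9.06-fold the quisinostat level for RT4, 1.82-fold for RT112 and 2.97-fold for SW780, or log2 ratios of -3.18, -0.86 and -1.57. A lower log2 ratio was held by 1.02% of loci (RT4), 5.14% (RT112) and 3.35% (SW780), and 39 of the 9112 loci had a lower value for the largest of their 3 ratios. SW780 had the highest level of the lines in DMSO and in quisinostat, and RT4 passed from the middle to the lowest place.

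A call within a line was a log2 ratio above 1 or below -1. In RT4, 2 of the 7 measured genes were above 1 (CXCL1 and CXCL8) and 3 below -1 (NFKB2, RELB and IKBKB), where 19.2% of all loci were above and 14.3% below. In RT112, 3 of the 6 genes with a ratio were above 1 (CXCL8, NFKB2 and RELB) against 14.9% of loci, and 0 were below -1 against 3.95%. In SW780, 2 of 7 were above 1 (CXCL8 and RELB) against 12.5% of loci, and 2 were below -1 (NFKBIA and IKBKB) against 7.64%. With so few genes these shares describe the list and do not set it apart from the loci around it.

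**Figure D3:**
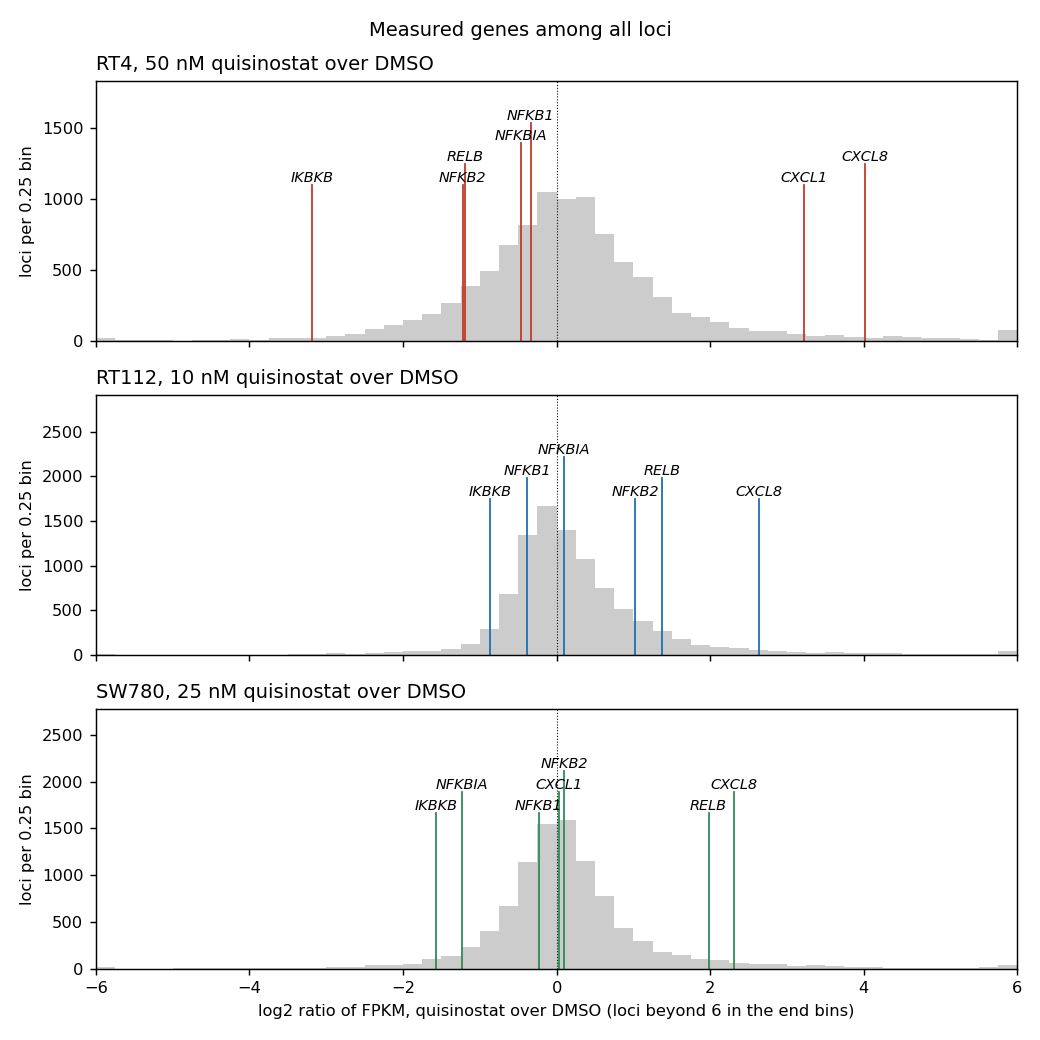
Number of loci in each 0.25-wide bin of the log2 ratio of quisinostat over DMSO (grey), in each cell line, with a coloured line at the ratio of each measured gene and loci beyond 6 in the end bins. CXCL8 lies in the right tail in every line, where 2.14%, 3.01% and 3.88% of loci had a larger ratio, and IKBKB on the left side of the bulk.

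The lines can also be taken as 3 pairs. limma with cell line as a block was fitted to log2(FPKM + 1) over the 9430 loci that averaged at least 1 FPKM, a scale that understates the difference of low genes. After Benjamini-Hochberg adjustment limma called 0 loci (0% of those tested), and at an unadjusted p under 0.05 it gave 913 loci higher (9.68%) and 392 lower (4.16%), among them CXCL8 and IKBKB of the 6 genes tested. An exact sign-flip permutation test of 3 pairs cannot give a two-sided p below 0.25. CXCL8, higher in every line, differed by 1.58 ± 0.37 (SE) on this scale, with a limma Benjamini-Hochberg adjusted p = 0.273, which ranged from 0.0825 to 0.973 over the alternative settings. IKBKB differed by -1.13 ± 0.34 (SE), lower in every line, with a limma Benjamini-Hochberg adjusted p = 0.314, ranging from 0.117 to 0.989. NFKB1 differed by -0.29 ± 0.19 (SE, limma adjusted p = 0.498) and NFKBIA by -0.50 ± 0.27 (SE, limma adjusted p = 0.445). NFKB2 and RELB, whose lines went opposite ways, had differences of -0.03 ± 0.38 and 0.14 ± 0.44 (SE). CXCL1 missed the filter with a mean of 0.880 FPKM.

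Transcript GC content moved with the log2 ratio, in opposite directions in RT4 and RT112. Across loci, which are not independent replicates, the log2 ratio and the percentage of G and C had a Spearman correlation of -0.49 for RT4 (8475 loci), 0.43 for RT112 (8446 loci) and -0.22 for SW780 (8505 loci). RELB and NFKB2 have GC-rich transcripts (65.4% and 62.4%), CXCL8 a GC-poor one (33.4%), and IKBKB, NFKBIA and NFKB1 lie between 50.1% and 53.1%. After a smooth curve of log2 ratio on GC content was subtracted in each line, the log2 ratio of CXCL8 was 3.29 for RT4, 2.82 for RT112 and 2.05 for SW780. IKBKB had corrected log2 ratios of -3.14, -0.94 and -1.59, close to the uncorrected ones. NFKB2 had -0.21, 0.25 and 0.39 and was no longer called in any line. RELB had 0.12 in RT4, which turned its direction there, 0.37 in RT112 and 2.36 in SW780, where alone it was still called. The log2 ratio of NFKBIA in SW780 was -1.23 with and without the correction, and that of CXCL1 in RT4 was 2.94.

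**Figure D4:**
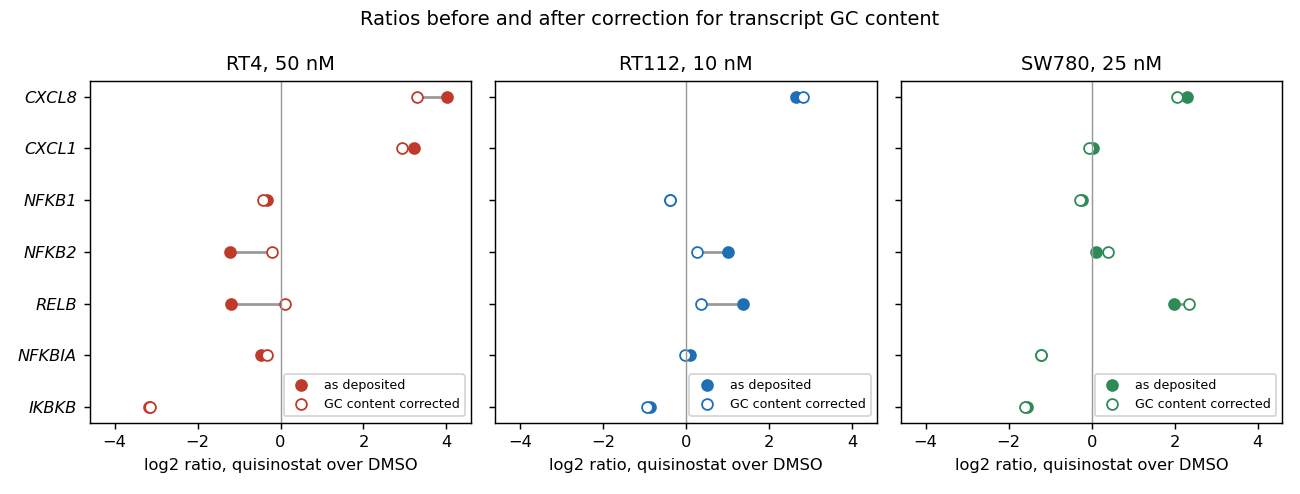
Log2 ratio of quisinostat over DMSO for each measured gene as deposited (filled) and after subtraction of the GC content curve of its line (open), in RT4, RT112 and SW780. CXCL8 and IKBKB stay on their sides of 0 in each line, and the RT4 and RT112 points of NFKB2 and RELB move toward 0, RELB in RT4 from -1.19 to 0.12.

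The other genes of the pathway were followed through 11 lists of 123 genes, of which 80 were in the table and 73 had a ratio in each line. Of these 73, 9 (12.3%) were above 0.3 in all lines and 2 (2.74%) below -0.3 in all, close to the 11.4% and 4.99% of all loci. Opposite directions past 0.3 were found for 30 of the 73 (41.1%, against 29.3% of all loci). The median log2 ratio of the listed loci was -0.01 (RT4), 0.43 (RT112) and 0.06 (SW780), against 0.10, 0.06 and 0.05 over all loci. limma with Benjamini-Hochberg adjustment called 0 of 76 tested, and 8 were higher and 4 lower at an unadjusted p under 0.05. Of all loci tested, 9.68% were higher and 4.16% lower at that limit, so these counts do not set the lists apart.

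**Figure D5:**
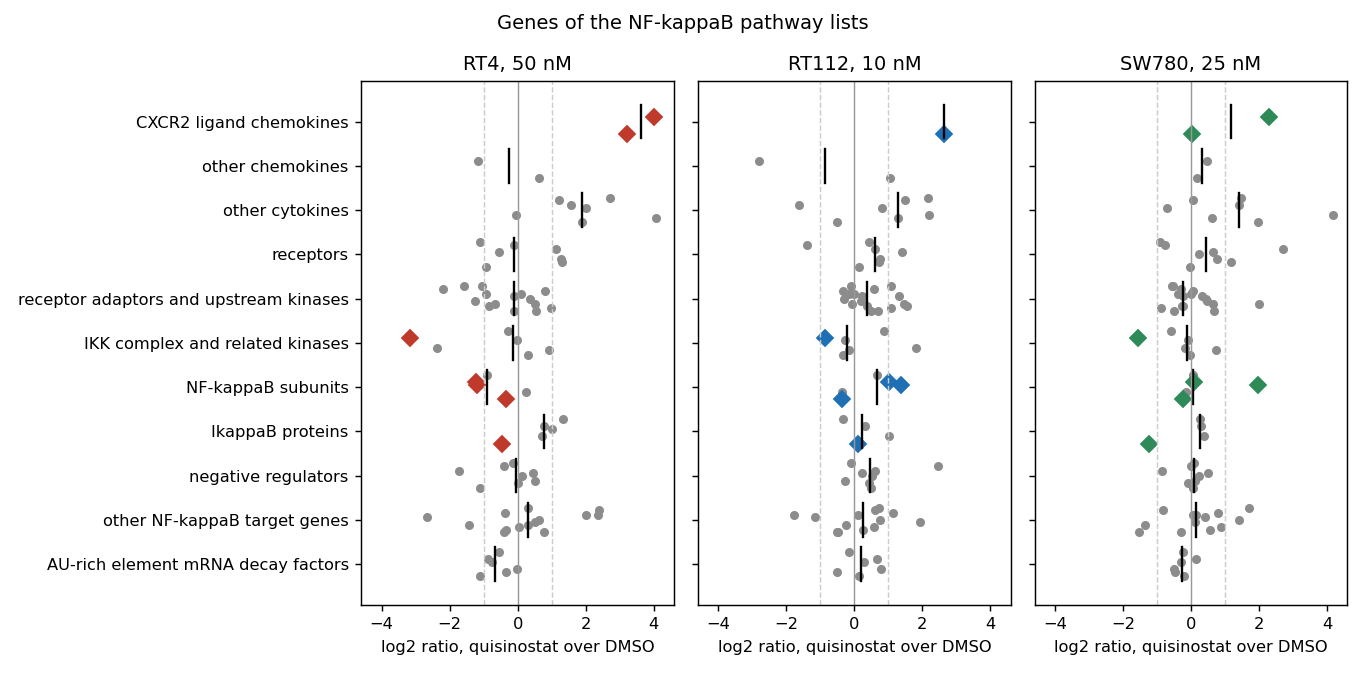
Log2 ratio of quisinostat over DMSO for each gene of the 11 pathway lists (grey points, or coloured diamonds for the 7 measured genes of the main list), with black bars at list medians and dashed lines at -1 and 1, in RT4, RT112 and SW780. The medians of the other cytokines lie at 1.90, 1.28 and 1.41, and those of the NF-kappaB subunits at -0.90, 0.66 and 0.05.

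After the CXCR2 ligands, the other cytokines had the highest list median of log2 ratios in RT4 and RT112, and in SW780 theirs was above the ligands'. Of 7 cytokine genes measured, 6 were above 1 in RT4 and 4 each in RT112 and SW780, where 19.2%, 14.9% and 12.5% of all loci were, and the list medians were 1.90, 1.28 and 1.41. With 1 FPKM added to each value the medians were 1.54, 0.48 and 1.28, so the one in RT112 leans on low levels. The interleukin-1 genes IL1A and IL1B were higher with quisinostat in RT4 and SW780 and lower in RT112, with log2 ratios of 1.90, -0.51 and 1.97 and of 1.56, -1.64 and 1.41. IL18, which encodes a cytokine of the interleukin-1 family, was above 1 in all 3 lines, from 4.10 to 26.8 FPKM in RT4, from 5.21 to 23.4 in RT112 and from 10.95 to 30.6 in SW780. Of the other chemokines 2 were measured, CXCL16 with log2 ratios of 0.64, 1.06 and 0.18 and CXCL17 with -1.17, -2.81 and 0.46.

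At the receptors, IL1R1 and IL1RAP, the chains of the interleukin-1 receptor, were higher with quisinostat in each line, with log2 ratios of 1.12, 0.62 and 2.69 and of 1.28, 0.77 and 0.76. The levels of IL1R1 in DMSO and quisinostat were under 1 FPKM in RT112 (0.471 and 0.723) and SW780 (0.0541 and 0.349). The adaptor gene TRADD had ratios of 0.53, 0.50 and 0.67, and the kinase gene IRAK1 -2.20, 0.56 and -0.29. With the GC content correction the ratio of TRADD in RT112 was -0.48, on the other side of 0. The IKK complex genes CHUK and IKBKB did not share a direction. CHUK, the gene of IKKalpha, had log2 ratios of 0.29, -0.32 and -0.03, beside -3.18, -0.86 and -1.57 for IKBKB. The locus of CHUK is shared with ERLIN1, so these ratios are not those of CHUK alone. CHUK was named after its values were seen, as the partner of IKBKB. TANK, which binds the related kinase TBK1, had ratios of 0.93, -0.16 and 0.75.

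RELA, the subunit of the main canonical dimer, had log2 ratios of -0.90, 0.66 and 0.05, with the signs of NFKB2, and was also named after its values were seen. Of the 5 subunit genes, 2 were below -1 in RT4 and 2 above 1 in RT112 (NFKB2 and RELB both times), where 14.3% and 14.9% of all loci were, and with the GC content correction none of these 4 values was called. Among the 5 measured IkappaB genes NFKBIE, a second inhibitor, was higher with quisinostat in each line, with log2 ratios of 0.70, 1.02 and 0.39, unlike NFKBIA. Of 8 measured negative regulators, TNIP2 had ratios of -1.74, 0.61 and -0.86, and ZC3H12A, an RNase gene that acts on cytokine transcripts, -0.41, 2.47 and -0.01.

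Of 14 NF-kappaB target genes measured beyond the chemokines, PTGS2 (cyclooxygenase-2) had log2 ratios of 2.38, 0.60 and 0.89 and GADD45B 0.52, 1.94 and 0.78, while TNFAIP2 had -1.42, -0.24 and -1.35. LCN2 had -2.68 in RT4 and -1.15 in RT112, and was listed at 0 in SW780 with quisinostat. In RT4, 3 of the 14 were above 1 and 2 below -1, close to the 19.2% and 14.3% of all loci. In RT112 and in SW780 2 were above 1 and 2 below -1 among 13 with a ratio. Of all loci, 14.9% (RT112) and 12.5% (SW780) were above 1, and 3.95% and 7.64% below -1. All 6 listed factors that bind AU-rich elements, such as those in chemokine transcripts, were measured. None was above 1 in any line, ZFP36 (tristetraprolin) had ratios of -1.10, 0.14 and -0.19, and HNRNPD (AUF1) had -0.36, -0.51 and -0.47.

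The loci with the pattern most like that of CXCL8 were sought among 8768 named loci that averaged at least 1 FPKM, by the root mean square difference of their centred log2(FPKM + 1) values over the 6 libraries. The smallest differences were those of CCBE1 (0.118), DHRS7 (0.214), PPP4R4 (0.222), GLIPR1 (0.244) and MUM1L1 (0.248), against a median of 1.04 over all compared. CCBE1 had levels of 0.363 and 4.43 FPKM in RT4, 0.00510 and 1.03 in RT112, and 1.14 and 4.54 in SW780, with DMSO first. As for CXCL8, its levels in quisinostat were alike in RT4 and SW780 and lower in RT112. IL18, AREG and RASSF6, which were also higher in all 3 lines, were not among the 5.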

How the data were processed

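Polyadenylated RNA of 6 libraries was sequenced as stranded libraries on an Illumina NovaSeq, and the authors used HISAT2, StringTie and Ballgown. The submitters' processing notes name CASAVA 1.8.2, Trimmomatic 0.36, HISAT2 2.2.1, SAMtools 1.15.1, StringTie 2.2.1 and GRCh38, and the annotation release is not given in the sources used here. The authors deposited FPKM per gene and no read counts. The cell line tag of the SW780 quisinostat library is spelled differently from its title, which was used.

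From the deposited values, 1 row per assembled locus was kept. The log2 ratio of quisinostat over DMSO used no pseudocount and no filter, and called values lay above 1 or below -1. limma 3.58.1 in R 4.3.3 was run on log2(FPKM + 1) with a mean-variance trend, a mean FPKM filter of 1 and cell line as a block, since both libraries of a pair come from the same line, with Benjamini-Hochberg adjustment over all loci. No spread between cultures of a line was measured. The GC content of the longest protein-coding transcript (GENCODE 29) was known for 89.6% of loci, and the correction subtracted a lowess curve with a span of 0.3. Both steps were tested on simulated data. Python 3.11.15 was used otherwise.

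The genes and lists were chosen with earlier results of these data known. Named were the listed genes, and per pathway list the genes past 1 or -1 in all 3 lines or else the 2 with the largest absolute mean ratio among those with a ratio in every line (mean FPKM of at least 1), and the 5 loci closest to CXCL8. RELA, CHUK, IL1A, IL1B, CXCL17, TNFAIP2, LCN2, the single markers (TUBB3 and LUM among them) and the neighbours of CXCL8 and IKBKB were named after values were seen. The promoter motifs and the 1 Mb window were also chosen after values were seen. Of 5 genes that other HDAC inhibitors are known to raise, 1 was above 1 in RT4, 3 in RT112 and 1 in SW780, where 19.2%, 14.9% and 12.5% of all loci were. In RT4, RT112 and SW780 the log2 ratios were 0.12, 1.36 and 0.52 for CDKN1A and 0.93, 2.79 and 1.50 for GSN. GSN was under 1 FPKM in both SW780 libraries. H1F0 had 1.08, 0.45 and -0.04, and CLU 0.09, 2.62 and -0.32. TUBB3, at a locus shared with TCF25, had log2 ratios of -1.90, 0.54 and -0.61. Alternatives were pseudocounts of 0.1 and 1, filters on or off, centring, rescaling, quantile normalization, the GC correction, other thresholds, no trend, no block and leaving out a line. The study's other experiments were not used here.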

Additional observations from a re-analysis of the deposited data

Results flagged for a closer look

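Of the genes named here, leaving out markers other than TUBB3 and LUM, 10 had a log2 ratio above 0.3 in one line and below -0.3 in another, as did 29.3% of all loci. The difference between lines was not tested, since each line and treatment had 1 library. With the GC content correction 6 of the 10 no longer did so. RELB spanned 3.17 from its lowest log2 ratio, in RT4, to its highest, in SW780, and its corrected ratios ran from 0.12 to 2.36. NFKB2 spanned 2.24 from RT4 to RT112, and -0.21 to 0.39 corrected. IRAK1 spanned 2.77 (corrected -1.12 to 0.02), TNIP2 2.35 (corrected -0.78 to -0.12), ZC3H12A 2.88 (corrected 0.24 to 1.799) and TUBB3 2.44 (corrected -1.24 to 0.04), all lowest in RT4 and highest in RT112.

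The other 4 still had opposite directions past 0.3 after the correction. RELA spanned 1.56 from RT4 to RT112 (corrected -0.44 to 0.31). The other 3 were lowest in RT112: IL1A spanned 2.48 (corrected -0.35 to 1.803), IL1B 3.20 (corrected -1.55 to 1.31) and CXCL17 3.28 (corrected -2.74 to 0.37).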

How the results depend on the processing

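Of 185 recomputed values of single genes, 161 kept their direction and their side of the threshold, 13 fell short of it, 1 passed it (IKBKB in RT112, -1.46 after quantile normalization) and 5, given below, turned. The 161 include values that could not turn. The mean FPKM filter leaves a ratio as it is. In limma, dropping the filter, the trend or the block leaves the fold change as it is and alters only its error and p. Another 5 small uncalled ratios crossed 0: CXCL1 in SW780 under 3 settings, down to -0.71 after quantile normalization, NFKBIA in RT112 and NFKB2 in SW780. Quantile normalization moved the median log2 ratio of all loci from 0.10 to -0.03 in RT4 and from 0.06 to -0.09 in RT112. CXCL8 stayed higher and IKBKB lower in all 3 lines past 0.3 under every pseudocount, scaling and GC correction tried. The 7 member values above 1 became 3 with a pseudocount of 1, and the 5 below -1 became 3 with that pseudocount and 3 with the GC correction. CXCL8 in RT112, at 0.896 with a pseudocount of 1, was among those that fell short. At a threshold of 1 in all lines 0 genes were lower. Leaving out a line in turn, 1 to 2 genes were higher in the remaining lines (RELB joined without RT4) and 1 to 2 lower (NFKBIA joined without RT112, NFKB1 without SW780).

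RELB in RT4 had a GC-corrected log2 ratio of 0.12, and across the lines limma gave it -0.14 after quantile normalization and -0.19 to -0.060 without SW780 and without RT112 in turn, and without RT4 it missed the filter. NFKB2 ranged from -0.43 without RT112 to 0.42 without RT4.

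With no replicate block for the cell line, limma gave 314 loci higher and 106 lower at an unadjusted p under 0.05 in place of 913 and 392, and 0 after adjustment as with the block. Leaving out a line in limma gave 1 to 48 loci higher and 0 to 18 lower at an adjusted p under 0.05, most without RT112, and 431 to 1260 higher and 85 to 924 lower at an unadjusted p under 0.05. The cause was not tested. With unknown depth and 1 library per line and treatment, levels under 1 FPKM have no error of their own. Among the 7 measured genes these were, in DMSO, the levels of CXCL8 in RT4 and RT112 and of RELB in RT112 and SW780. CXCL1 in RT4 DMSO and in both SW780 libraries, and IKBKB in RT4 with quisinostat (0.367 FPKM), were under 1 as well.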
